A study of Danio rerio with 4 samples.

Results

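A set of 9 genes that regulate or mark the lymphatic lineage was followed in venous and lymphatic endothelial cells of zebrafish embryos that lack tie1. They are the transcription factor genes prox1a, tbx1, osr2, mafba and mafbb, the surface protein genes cldn11b and cdh6, and the genes of the secreted factors ccbe1 and vegfc. They were taken by gene symbol, and all 9 were found among the 29027 rows that each deposited table lists. The comparison was between homozygous mutants (tie1 Homo, 2 libraries) and pooled wild-type and heterozygous siblings (tie1 WT/Het, 2 libraries), all at 47 hours post fertilization. Embryos of both groups carried the Tg(kdrl:EGFP) and Tg(lyve1:DsRed) reporters, and the mutants were those that had blood flow. Trunks and tails were dissociated, cells positive for both reporters were sorted, and RNA was sequenced after low-input amplification. The sibling group mixes 2 genotypes, and neither the number of embryos behind a library nor whether the replicates came from separate clutches is given in the sources used here. The p-values therefore rest only on spread between these libraries, which may be technical. In the fit used below, that spread is taken from the trend over genes of like level, not from the gene's own replicates. In sorted bulk samples, fewer cells of a type and less RNA per cell cannot be told apart.

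In zebrafish, trunk lymphatic vessels arise from cells that leave the cardinal vein. The secreted growth factor Vegfc binds the receptor Flt4 on these cells, and the secreted protein Ccbe1 assists the proteolytic maturation of Vegfc. Downstream, the homeodomain factor Prox1 establishes lymphatic identity, and mafba acts in the precursors after Vegfc signalling. Tie1, an endothelial receptor tyrosine kinase, is needed for lymphatic development in mice and fish.

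Values are in TPM, a unit of transcript abundance corrected for transcript length, so levels can be compared between genes. The level reached by genes not presumed to be active in these cells was measured on 318 rows for odorant, trace amine associated, vomeronasal and taste receptors and gamma crystallins. Their median in replicates 1 and 2 was 2.25 and 3.65 TPM for sibling cells, and 8.39 and 11.0 TPM for mutant cells. Their 95th percentile, called the background limit below, was 3.93 and 6.38 TPM in sibling cells and 13.6 and 18.7 TPM in mutant cells. It was exceeded by 34.5% and 31.5% of all rows in sibling cells and by 17.2% and 10.8% in mutant cells. The median of all rows moved in the same way, from 2.59 and 4.16 TPM in sibling cells to 8.0 and 11.1 TPM in mutant cells. The part of this shift in the results below was not tested, so each value is given with the limit of its own library. Of 6 defining markers of the sorted cells (kdrl, cdh5, lyve1b, flt4, stab2 and mrc1a), all exceeded the limit in sibling replicates 1 and 2. In each mutant library 5 were above it, the exception being flt4. All 6 were nonetheless lower in both mutant libraries than in both sibling libraries. So were 12% of all genes tested and 41.4% of genes with a mean of at least 10 TPM, a class that holds these 6. The reporter gene kdrl was at 952 and 1009 TPM in sibling cells and at 322 and 47.2 TPM in mutant cells. For lyve1b the values were 1410 and 1044 TPM in sibling cells and 608 and 175 TPM in mutant cells. The targeted gene tie1 was at 61.0 and 31.0 TPM in sibling cells and at 16.7 and 10.2 TPM in mutant cells, above the limit in mutant replicate 1 and under it in mutant replicate 2.

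The 9 genes spanned a wide range of levels. The Maf factor genes mafbb and mafba led in both sibling libraries, and the other 7 genes lay between 1.68 and 18.2 TPM there. Together mafba and mafbb held 87.6% of the summed TPM of the 9 genes in each sibling library. That share was 66.6% in mutant replicate 1 and 25.2% in mutant replicate 2. The summed TPM of the other 7 genes was 56.3 and 38.1 in sibling cells and 79.1 and 98.3 in mutant cells, where the median of all rows was higher too. Of these 7 genes, cldn11b, cdh6 and vegfc overlapped between the groups. By the background limit, mafba was above it in all 4 libraries, tbx1, mafbb and cldn11b in 3, vegfc in 2, prox1a and cdh6 in 1, and osr2 and ccbe1 in none. The number of the 9 above the limit was 6 in sibling replicate 1, 5 in sibling replicate 2, 4 in mutant replicate 1 and 2 in mutant replicate 2.

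**Figure D1:**
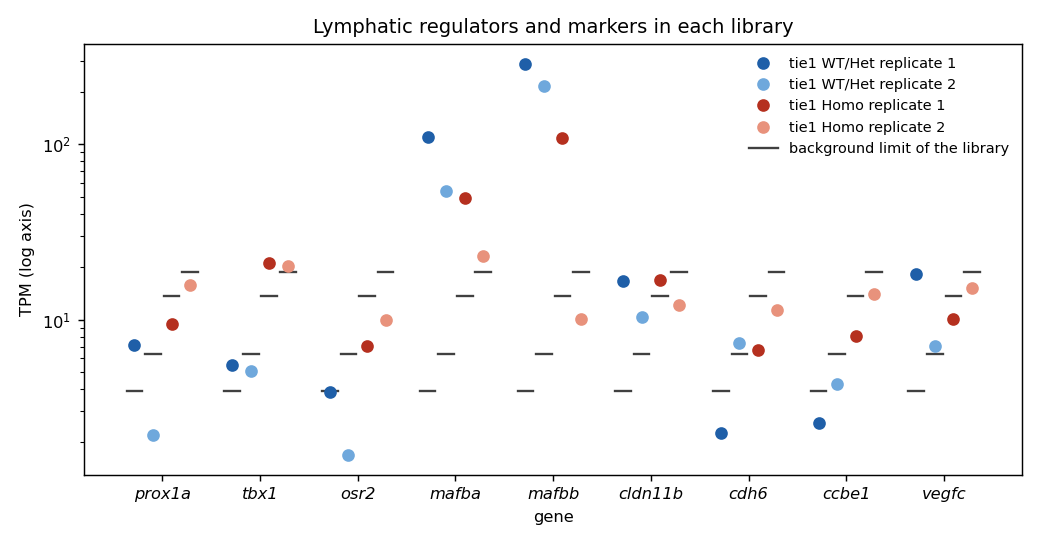
TPM (log axis) of the 9 genes in each of the 4 libraries, with a short line at the background limit of the same library (95th percentile of 318 sensory receptor and crystallin genes). Only mafba is above the line in all 4 libraries, and osr2 and ccbe1 are under it in every library.

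All 9 genes passed the filter of a mean of at least 1 TPM over the 4 libraries and were tested with the 28301 genes that did. In limma's moderated fit on log2(TPM + 1), with Benjamini-Hochberg adjustment over all genes tested, 4 of the 9 were higher in mutant cells at an adjusted p-value under 0.05 (prox1a, tbx1, osr2 and ccbe1) and 1 was lower (mafbb). Among all genes tested 44.6% were called higher and 4.43% lower. The 4 of 9 is thus near the background share, and the call of mafbb is a single gene. The groups did not overlap for 4 of the 9 in the higher direction, against 65.8% of all genes. They did not overlap for 2 in the lower direction (mafba and mafbb), against 12% of all genes. These shares depend on level. Among the 7955 genes with a mean of at least 10 TPM they were 18.6% higher and 41.4% lower. Of the 5 members in that class, 1 did not overlap in the higher direction (tbx1) and 2 in the lower (mafba and mafbb). With 5.52 and 5.06 TPM in sibling cells, tbx1 reached that mean only through the mutant libraries (20.9 and 20.1 TPM). Its place in the class thus follows from its rise and lends that rise no support. Over the 9 genes the median log2 fold change was 0.90, below the median of 1.17 over all genes tested. With 2 libraries against 2, the two-sided exact permutation test cannot give a p-value below 0.333. That is its value for the 6 genes whose groups did not overlap.

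**Figure D2:**
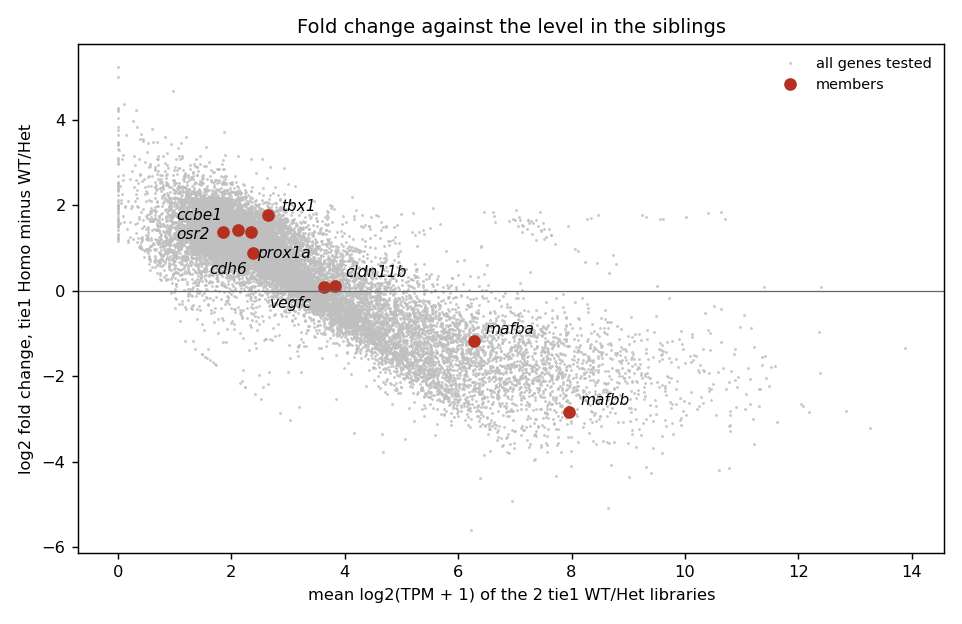
Log2 fold change, tie1 Homo minus tie1 WT/Het on the log2(TPM + 1) scale (y axis), against the mean log2(TPM + 1) of the 2 sibling libraries (x axis), for all 28301 genes tested (grey) and the 9 genes (red). Genes that were low in sibling cells lie mostly above 0 and abundant genes mostly below it, and the 9 genes lie within this band.

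The transcription factor gene mafbb was the most abundant of the 9 in sibling cells and was lower in both libraries of mutants. Maf proteins are basic leucine zipper factors. Its level was 289 and 214 TPM in sibling replicates 1 and 2, 108 TPM in mutant replicate 1 and only 10.1 TPM in the other mutant library. Both mutant values lay below both sibling values, and the mutant libraries themselves differed by 10.7 times. In mutant replicate 2 mafbb was under the background limit and at 0.914 times the median of the sensory receptor and crystallin genes. The means were 251 ± 52.9 TPM in sibling cells and 59.1 ± 69.4 TPM in mutant cells (mean ± SD, n = 2 libraries each). The log2 fold change was -2.84 (SE 0.93), at an adjusted p of 0.0176 by limma. This SE came from the trend over genes of like level. The residual SD of mafbb itself was 1.66 on the log2 scale, so its p-value does not measure how far its replicates differed. Without mutant replicate 2 the log2 fold change was -1.19, and without mutant replicate 1 it was -4.49. Without sibling replicate 1 or 2 the adjusted p by limma was 0.203 and 0.0702. The size of the fall thus rests on mutant replicate 2, and the call held only when mutant replicate 1 was the library left out. The direction was the same in all 16 alternatives tried.

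Its paralog mafba is the gene mutated in the hindbrain mutant valentino and is known in zebrafish for the migration of lymphatic precursors. It was at 110 and 53.9 TPM in sibling cells and at 49.4 and 22.9 TPM in mutant cells. Both mutant values lay below both sibling values, but sibling replicate 2 and mutant replicate 1 were close to each other. With a log2 fold change of -1.16 (SE 0.88) it did not pass the threshold (adjusted p = 0.241 by limma). Within each library mafba kept a high rank: the share of listed genes with a lower TPM was 95.5% and 92.7% in sibling cells and 94.3% and 92.7% in mutant cells. The corresponding ranks of mafbb were 98.3% and 98.0% in sibling cells, 97.5% in mutant replicate 1 and 38.0% in mutant replicate 2. The ratio of mafbb to mafba, which no rescaling of a whole library can alter, was 2.64 and 3.97 in sibling cells. It was 2.19 in mutant replicate 1 and 0.44 in mutant replicate 2. A raised background, unlike a rescaling, can alter this ratio. In mutant replicate 2 mafbb was at 0.914 times and mafba at 2.08 times the median of the sensory receptor and crystallin genes. The 0.44 thus sets a value at background against one not far above it, in 1 library. How reads shared by the paralogs were assigned is not given in the sources used here.

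Of 23 pan-endothelial genes 11 were called lower and 1 higher in mutant cells, against 4.43% and 44.6% of all genes tested. Some of the gene lists used here and below share genes, so their counts are not independent. For example, tie1 is in this list and in that of signalling genes of lymphangiogenesis. The median log2 fold change of the 23 was -1.76, against 1.17 for all genes tested. It was -0.53 for all genes with a mean of at least 10 TPM, and the 23 were not matched to other genes by level. Both Maf genes were also set against this list. The summed TPM of 22 pan-endothelial genes other than tie1 served as the reference. Per 100 TPM of these genes mafbb had 4.34 and 4.19 TPM in sibling cells and 4.42 TPM in mutant replicate 1. In mutant replicate 2 it had 1.26 TPM. On this scale mutant replicate 1 did not lie below the siblings and mutant replicate 2 did. For mafba the values were 1.65 and 1.06 TPM in sibling cells and 2.02 and 2.87 TPM in mutant cells, with both mutant values above both sibling values. The share of all genes that did so on this scale was not computed. With tie1 included, the pan-endothelial sum itself was 6712 and 5134 TPM in sibling cells. In mutant cells that sum was 2464 and 809 TPM. When the libraries were rescaled by the geometric mean of the pan-endothelial genes, the log2 fold change of mafbb was -1.26 (adjusted p = 0.110 by limma) and that of mafba was 0.42 (adjusted p = 0.624 by limma). Under this rescaling the groups overlapped for mafba and for mafbb. They did not overlap in the higher direction for 84.4% of all genes tested. The median log2 fold change of all genes was 2.46, so mafba lay 2.04 below that median.

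**Figure D3:**
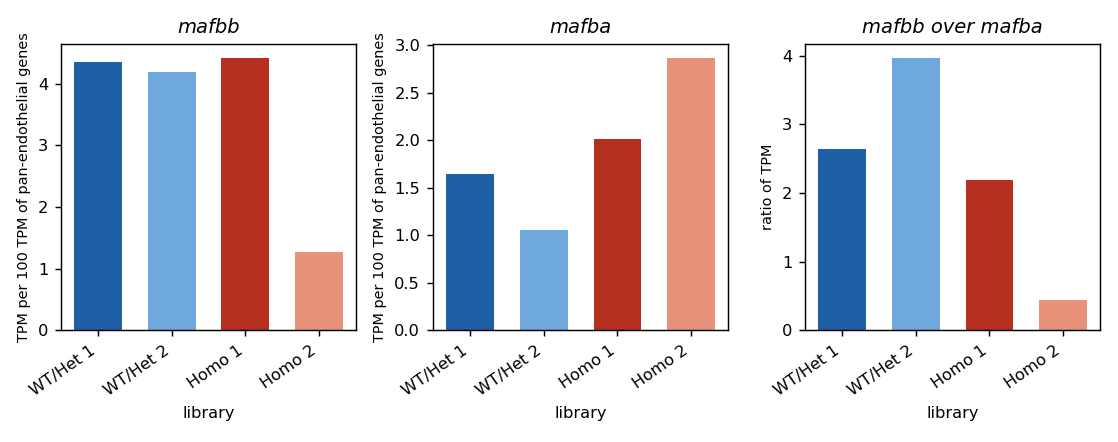
Levels of mafbb (left) and mafba (middle) in TPM per 100 TPM of pan-endothelial genes, and the ratio of mafbb to mafba (right), one bar per library. The mafbb bar of mutant replicate 1 (4.42) stands level with the siblings (4.34 and 4.19), and that of mutant replicate 2 (1.26) stands below them.

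Markers of myeloid cells, another cell type that the sorted sample could hold, are given beside these values. The 14 myeloid markers found summed to 732 and 713 TPM in sibling cells and to 875 and 396 TPM in mutant cells. None was at 0, but only 8 and 10 exceeded the background limit in sibling cells and 4 and 3 in mutant cells. The neutrophil and macrophage lysozyme gene lyz was at 344 and 319 TPM in sibling cells and at 35.9 and 21.8 TPM in mutant cells. The macrophage gene mfap4 had 180 and 137 TPM in sibling cells and 680 and 233 TPM in mutant cells. Of these 14 markers 3 were called lower and 2 higher in limma, against 4.43% and 44.6% of all genes tested. The 3 were above the background limit in both sibling libraries, and the 2 were under it in all 4 libraries. Per 100 TPM of the 14 markers mafbb had 39.4 and 30.0 TPM in sibling cells and 12.4 and 2.55 TPM in mutant cells. That sum mixes markers that fell with markers that rose. The share of all genes lower on this scale was not computed. The part of myeloid cells in the levels of mafba and mafbb was not tested.

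Of the 4 genes called higher, tbx1 was the one above the background limit in both libraries of mutants. It encodes a T-box transcription factor of pharyngeal and cardiovascular development, which in mice is required for lymphatic vessels of several organs. Its level was 5.52 and 5.06 TPM in sibling cells and 20.9 and 20.1 TPM in mutant cells, with the limits at 13.6 and 18.7 TPM in mutant cells. With the limit at the 99th percentile, 23.5 TPM in mutant replicate 2, tbx1 was under it in that library. Replicates of each group were close, and the groups did not overlap. The means were 5.29 ± 0.33 and 20.5 ± 0.56 TPM (mean ± SD, n = 2 libraries each), a log2 fold change of 1.78 (SE 0.64, adjusted p = 0.0235 by limma). Leaving out any single library ended the call, with log2 fold changes of 1.72 to 1.83 and an adjusted p by limma of 0.0681 (without sibling replicate 2) to 0.256 (without mutant replicate 2). In these fits 1 group has a lone library that is assumed to vary like the other group. Set against the median of the sensory receptor and crystallin genes of the same library, tbx1 was at 2.46 and 1.39 times in sibling cells and at 2.50 and 1.82 times in mutant cells, and on this scale the groups overlapped. By rank within the library it stood at 70.7% and 61.4% in sibling cells and at 88.2% and 90.7% in mutant cells. It was positive on the log2 scale in all 16 alternatives, of which median-of-ratios rescaling gave the smallest value, 0.52 (adjusted p = 0.547 by limma).

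Over the 9 genes, ranks within the library did not overlap between the groups for 1 gene in the higher direction, tbx1, against 23.6% of all genes tested. They did not overlap for 1 gene in the lower direction, mafbb, against 20.2% of all genes tested. For the other 7 the ranks overlapped.

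**Figure D4:**
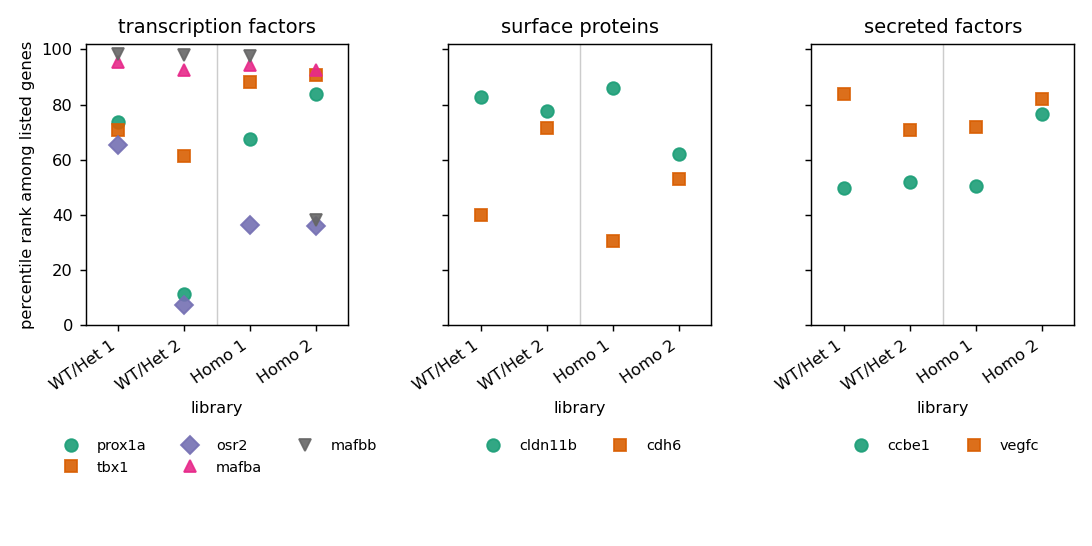
Percentile rank of each gene among the 29027 listed genes of the same library (y axis, percent of genes with a lower TPM), for transcription factors, surface proteins and secreted factors. Ranks of tbx1 are higher in both libraries of mutants (88.2% and 90.7%) than in sibling cells (70.7% and 61.4%), and mafbb drops to 38.0% in mutant replicate 2 alone.

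The homeobox gene prox1a, the best known regulator of lymphatic identity, was low throughout. It was at 7.19 TPM in sibling replicate 1, 2.21 TPM in sibling replicate 2, 9.49 TPM in mutant replicate 1 and 15.8 TPM in the other mutant library. The groups did not overlap in TPM, but sibling replicate 1 was the one library in which prox1a exceeded the background limit. Its rank was 73.5% and 11.2% in sibling cells and 67.5% and 84.0% in mutant cells, which overlapped. The log2 fold change of 1.37 (SE 0.57, adjusted p = 0.039 by limma) was 0.70 without sibling replicate 2 (adjusted p = 0.429 by limma) and 2.05 without sibling replicate 1 (0.0496). Without mutant replicate 1 or 2 the adjusted p by limma was 0.107 and 0.380. The call was also lost without the filter on low values (0.0518) and with moderation that had no trend (0.0564). Relative to the median of all genes tested, the log2 fold change exceeded it by 0.21.

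The zinc finger gene osr2, of the odd-skipped family known from palate development in mice, was under the background limit in every library. Its TPM was 3.89 and 1.68 in sibling cells and 7.10 and 9.93 in mutant cells. The groups did not overlap, and the value of sibling replicate 1 lay just under the limit of 3.93 TPM. Its log2 fold change was 1.38 (SE 0.53, adjusted p = 0.0289 by limma), which exceeded the median of all genes tested by 0.21. Leaving out any single library ended the call, with an adjusted p by limma from 0.0783 (without sibling replicate 1) to 0.333 (without mutant replicate 2). Moderation without a trend gave 0.0549.

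Neither surface protein gene passed the threshold in TPM as deposited. Claudins are proteins of tight junctions, and cldn11b is used as a marker of zebrafish lymphatic endothelium. It was at 16.7 and 10.4 TPM in sibling cells and at 16.8 and 12.1 TPM in mutant cells. The groups overlapped, and mutant replicate 1 had nearly the level of sibling replicate 1. The log2 fold change was 0.11 (SE 0.68, adjusted p = 0.899 by limma). This value is 1.06 below the median of all genes tested and 0.63 above that of genes with a mean of at least 10 TPM. It was -0.21 without sibling replicate 2, -0.11 without mutant replicate 1, -1.18 under median-of-ratios rescaling and -0.19 under quantile normalization, so no direction can be given. In mutant replicate 2 the level was under the background limit. Its paralog cldn11a differed from it: cldn11a was at 36.6 and 36.2 TPM in sibling cells and fell to 8.37 and 11.1 TPM in mutant cells, under the limit in both (log2 fold change -1.81, SE 0.74, adjusted p = 0.036 by limma). The difference between the paralogs was not tested.

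The cadherin gene cdh6, a cell adhesion gene, was at 2.26 and 7.39 TPM in sibling cells and at 6.71 and 11.3 TPM in mutant cells. The groups overlapped, and sibling replicate 2 was the one library in which cdh6 exceeded the background limit. For cdh6 the log2 fold change was 0.90 (SE 0.55, adjusted p = 0.146 by limma). It was 0.21 without sibling replicate 1 (adjusted p = 0.808 by limma) and 1.58 without sibling replicate 2 (0.0271), so the sibling libraries decide its size. It was -0.26 under median-of-ratios rescaling and -0.31 under quantile normalization. Rescaling by pan-endothelial genes gave 2.24 (adjusted p = 0.0112 by limma), against a median of 2.46 for all genes tested.

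The secreted factor genes ccbe1 and vegfc act on lymphatic precursors from outside, and their products come in part from cells other than the endothelium. Expression of ccbe1 was 2.58 and 4.28 TPM in sibling cells and 8.03 and 13.9 TPM in mutant cells. The groups did not overlap, and every value was under the background limit of its library. Against the median of the sensory receptor and crystallin genes, ccbe1 was at 1.15 and 1.17 times in sibling cells and at 0.96 and 1.26 times in mutant cells. The fit gave a log2 fold change of 1.42 (SE 0.55, adjusted p = 0.0292 by limma), which exceeded the median of all genes tested by 0.25. The call was lost without sibling replicate 1, mutant replicate 1 or mutant replicate 2 (adjusted p by limma of 0.201, 0.0984 and 0.366) and held without sibling replicate 2 (0.0243). Moderation without a trend gave 0.0509.

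Expression of vegfc was 18.2 and 7.06 TPM in sibling cells and 10.04 and 15.1 TPM in mutant cells. Both mutant values lay between the sibling values, and vegfc was above the background limit in both sibling libraries and in neither mutant library. The means of 12.6 ± 7.85 and 12.6 ± 3.58 TPM (mean ± SD, n = 2 libraries each) gave a log2 fold change of 0.10 (SE 0.66, adjusted p = 0.899 by limma). It was -0.52 without sibling replicate 2, -0.17 without mutant replicate 2, -1.18 under median-of-ratios rescaling and -0.056 under quantile normalization, so no direction can be given. Fibroblast and mural markers, which mark one kind of cell that can secrete both factors, summed to 717 and 524 TPM in sibling cells and to 324 and 277 TPM in mutant cells over the 16 found. Of these sums postnb alone held 357 and 246 TPM in sibling cells and 85.6 and 68.5 TPM in mutant cells. Of the 16, 12 and 10 exceeded the background limit in sibling cells and 6 and 2 in mutant cells. Of the 15 tested, 2 were called higher and 0 lower in limma, against 44.6% and 4.43% of all genes tested. Their median log2 fold change was -0.13. One of the 16, fbln1, was listed at 0 in all 4 libraries. The part of these markers in the levels of ccbe1 and vegfc was not tested.

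**Figure D5:**
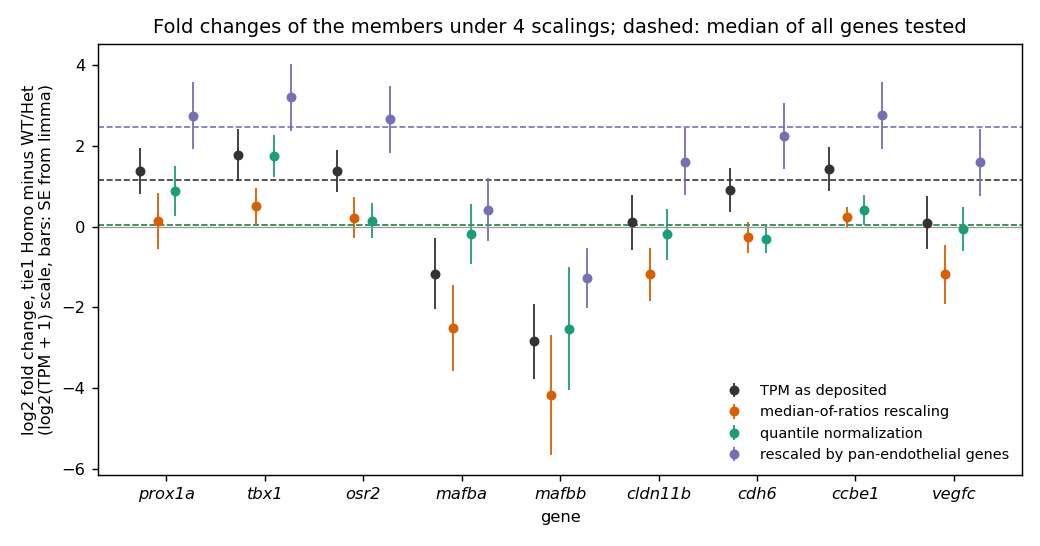
Log2 fold change of each gene, tie1 Homo minus tie1 WT/Het on the log2(TPM + 1) scale, with the SE from limma as bars, under 4 scalings of the libraries. Dashed lines mark the median of all genes tested under the same scaling, and mafbb is the one gene below 0 under each of the 4.

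Scaling the libraries turned the sign of mafba, cldn11b, cdh6 and vegfc, while prox1a, tbx1, osr2, mafbb and ccbe1 kept theirs under every scaling that tested them. Under median-of-ratios rescaling the median of all genes tested went from 1.17 to 0.03, and 0 of the 9 genes and 0 of all genes were called. At an unadjusted p under 0.05 that limma fit had 0 of the 9 genes higher and 1 lower. Of all 28283 genes tested it had 1218 higher and 4110 lower. Under quantile normalization the median was 0.05 and again 0 genes were called. At an unadjusted p under 0.05 limma then had 1 of the 9 higher and 0 lower, against 1335 and 1828 of all 28301 genes tested. Under both rescalings mafbb remained negative, at -4.17 and -2.53, and tbx1 positive, at 0.52 and 1.75.

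The remaining genes of the pathway are given beside the 9. Of 22 signalling genes of lymphangiogenesis other than the members, 6 were called lower and 2 higher, against 4.43% and 44.6% of all genes tested. The 6 were flt4, kdrl, tek, calcrla, aplnra and cxcr4b, all above the background limit in both sibling libraries. The Vegfc receptor gene flt4 went from 70.5 and 39.5 TPM to 11.2 and 15.8 TPM (log2 fold change -1.91, adjusted p = 0.0378 by limma). The gene calcrla, which encodes a calcitonin receptor-like receptor, went from 105 and 61.2 TPM to 9.45 and 12.3 TPM (log2 fold change -2.78, adjusted p = 0.0109 by limma). The apelin receptor gene aplnra went from 248 and 168 TPM to 21.7 and 28.0 TPM. The chemokine receptor gene cxcr4b went from 36.3 and 54.5 TPM to 9.23 and 12.7 TPM. Neither of the 2 called higher, angpt2a and kdr, was above the limit in both libraries of mutants. The protease gene adamts3, whose product cleaves Vegfc, was under the limit in all 4 libraries and was not called (2.04 and 5.11 TPM in sibling cells, 7.50 and 8.88 TPM in mutant cells, adjusted p = 0.0719 by limma). Over the 22 genes the median log2 fold change was -0.62, against 1.17 for all genes tested. It was -0.53 for all genes with a mean of at least 10 TPM, and the 22 were not matched to other genes by level.

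Among 17 further transcription factor genes of lymphatic or venous cells, 6 were called lower and 3 higher, against 4.43% and 44.6% of all genes tested. The median log2 fold change of the 17 was -0.10, and they were not matched to other genes by level. The largest of the falls was in sox18, which encodes an activator of Prox1 in mice, from 236 and 115 TPM to 13.2 and 19.4 TPM (log2 fold change -3.29, SE 0.88, adjusted p = 0.00632 by limma). The transcriptional co-activator gene yap1 fell from 43.8 and 43.0 TPM to 9.22 and 12.5 TPM (log2 fold change -1.92, adjusted p = 0.0325 by limma). The paralog of prox1a, prox1b, rose from 1.98 and 6.38 TPM to 22.6 and 11.4 TPM (log2 fold change 1.87, adjusted p = 0.0155 by limma), and exceeded the limit in mutant replicate 1 alone. The other 2 called higher, nr2f1b and tbx20, were under the limit in all 4 libraries. Of 10 further markers of lymphatic and venous cells 3 were called lower (dab2, fabp11a and stab2) and 0 higher, with a median log2 fold change of -1.91. For all genes with a mean of at least 10 TPM that median was -0.53.

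Genes listed as relatives of the 9, not all of them of the same protein family (egfl7 is not), were mostly at background. Of 43 tested 20 were called higher and 3 lower, against 44.6% and 4.43% of all genes tested. Of the 20, 17 did not reach the background limit in any library and 0 exceeded it in both libraries of mutants. The small Maf gene mafga had the largest of these rises, from 1.81 and 1.77 TPM to 31.7 and 7.12 TPM (log2 fold change 2.55, adjusted p = 4.45e-04 by limma), and was above the limit in mutant replicate 1 alone. The 3 called lower were cldn5b, cldn11a and egfl7, all above the limit in both sibling libraries. The median log2 fold change of the 43 relatives was 1.19, against 1.17 for all genes tested. Over all genes called higher, 87.5% were no higher than the limit in any library and 2.53% were above it in both libraries of mutants. With the limit at the 95th percentile tbx1 belongs to the latter, and at the 99th it does not.

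The genes whose levels were most like those of each member above the limit in at least 2 libraries were found by Euclidean distance of log2(TPM + 1) over the 4 libraries. Nearest to mafbb were CR932000.1 (distance 0.064), the RNA helicase gene ddx39aa (0.13) and the coagulation factor gene f13a1b (0.31). The row CR932000.1 had 1.02 times the TPM of mafbb in each of the 4 libraries, while mafbb itself ranged over 28.6 times, and whether the 2 rows share reads was not tested. The log2 ratio of this pair ranged over 0.0036. For the other members the row of steadiest ratio ranged over 0.032 (ccbe1) to 0.25 (prox1a). Such rows were picked from many over only 4 libraries, so a near match alone shows no link. Nearest to mafba were si:dkey-188i13.11, anxa2a and slc30a7 (distances 0.33 to 0.40). Nearest to tbx1 were bmpr1bb, si:ch211-197d11.2 and rnf144b (0.16 to 0.21). For cldn11b they were TGOLN2, si:ch211-199g17.9 and dazap2 (0.034 to 0.14), and for vegfc they were mtss1la, pkig and hs2st1b (0.11 to 0.19).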

How the data were processed

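RNA was sequenced from 4 libraries of sorted cells. For each library the authors deposited a table of TPM values, per the file headers. The submitters' processing notes name Trim Galore 0.6.6, cutadapt 2.8, HISAT2 2.2.1, SAMtools 1.7, StringTie 2.1.4 and the build GRCz11, with no order. The annotation and filters are not given in the sources used here. The listed rows summed to 813042 and 736606 TPM in the siblings and to 602394 and 481065 TPM in the mutants. TPM keeps no read depth, so no counting interval was computed.

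Groups and replicate numbers came from the sample titles. Mutants were compared with siblings by limma 3.58.1 (R 4.3.3) in a model of log2(TPM + 1) on group, over genes with a mean of at least 1 TPM, with trended moderation, two-sided tests and Benjamini-Hochberg adjustment at 0.05. Fold changes on this scale understate those of low genes. The fit has 2 residual degrees of freedom, and limma estimated infinite prior degrees of freedom for the moderation. Each gene's own variance was thus replaced by the trend for its level. An SE therefore does not measure the spread of that gene's replicates, and the p-values do not reflect the small number of libraries. The fit was tested on simulated data that held large changes in few genes, with no shift of all genes and no raised background. That test therefore does not vouch for the calls made here. Permutation tests used scipy 1.17.1. Ranks are the percent of listed rows with a lower TPM in the same library.

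The members, gene lists and background genes were chosen with earlier results of these data known. Genes named are the members, list genes called in limma and fixed landmark genes, and the 3 nearest genes by pattern. The genes lyz, mfap4, postnb and fbln1 were named after their values were seen. All 9 members matched a protein-coding gene by symbol in RefSeq (GRCz12tu), another build, so no coordinates are given. Alternatives were other pseudocounts (0.1 and 5), filters, scalings and moderation, a replicate block, and leaving out each library.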

Additional observations from a re-analysis of the deposited data

How the results depend on the processing

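Of the 9 members, the 4 calls higher and 1 call lower became 0 and 0 with quantile normalization and with median-of-ratios rescaling. They were also 0 and 0 with a filter of a mean of at least 10 TPM and after background subtraction, but these settings tested only 5 and 6 members. The calls of osr2 and ccbe1 were not tested under either, nor that of prox1a under the filter. The corresponding counts over all genes, 12618 higher and 1255 lower, became 5 and 58 with that filter and 0 and 0 under the other 3 settings. At an unadjusted p-value under 0.05 limma had 277 genes higher and 2722 lower after background subtraction, 1335 and 1828 with quantile normalization, and 1218 and 4110 with median-of-ratios rescaling. Rescaling by pan-endothelial genes gave 5 members called higher, with cdh6 added, and 0 lower, with 21153 genes higher and 120 lower. Moderation without a trend left 1 member called higher, with 8103 genes higher and 1986 lower, and rescaling to equal totals gave 707 genes lower. Leaving out 1 library gave 0 to 2 members higher, 0 to 1 lower, 521 to 14006 genes higher and 66 to 1762 genes lower. Replicate numbers are shared between the groups. With a replicate block 3 members were called higher and 0 lower, the calls of prox1a (adjusted p = 0.107 by limma) and mafbb (0.0784) being lost, with 15263 genes higher and 666 lower. The same-numbered libraries deviated with a correlation of 0.13, which does not show that the numbers pair them.

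Signs turned as follows. The log2 fold change of mafba was 0.42 when rescaled by pan-endothelial genes. That of cldn11b was -1.18 with median-of-ratios rescaling, -0.19 with quantile normalization and -1.31 when the background median was subtracted, and -0.21 to 0.42 with 1 library left out. That of cdh6 was -0.26 and -0.31 under the first 2 of these. That of vegfc was -1.18, -0.056 and -1.24 under these 3, and -0.52 to 0.73 with 1 library left out. The median of all genes was -0.53 with the 10 TPM filter and -1.12 after background subtraction. The cause was not tested. The signs of prox1a, tbx1, osr2, mafbb and ccbe1 turned under none of the alternatives that tested them (14 for osr2 and ccbe1, 15 for prox1a, 16 for tbx1 and mafbb). With the limit at the 99th percentile of the background genes, 0 members exceeded it in mutant replicate 2 and 3 in sibling replicate 2. Read depth is unknown, and levels near the limit cannot be told from background.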
